A study of Homo sapiens with 8 samples.

Results

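The report concerns 9 genes named for their role in blood vessel endothelium, the receptor genes TIE1, TEK, KDR and FLT1, the coreceptor gene ENG, the transcription factor gene SOX17, the trafficking gene EHD3 and the adhesion genes PECAM1 and CDH5. They were followed in AB8/13, a conditionally immortalised line of human podocytes, the epithelial cells that wrap the glomerular capillaries. Each of the 9 was found by its Ensembl identifier in a table of 60564 genes. Control cells (4 RNA-seq libraries) carried a non-targeting shRNA. ATOH8 knockdown cells (4 libraries) carried shRNA against ATOH8, which encodes a helix-loop-helix transcription factor. All 8 came from cells grown at 33 °C and then kept at 37 °C for 5 days to differentiate, and both shRNAs were delivered with Lipofectamine 3000. The labels call the cells podocytes of kidney, which is 1 cultured line, and the sources used here do not give how many shRNA sequences targeted ATOH8. The genes were picked with their difference between these groups already known, so that difference is described for them with its standard error (SE) and without a test.

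In vessels, TEK (also TIE2) is the receptor for angiopoietins, and TIE1 is its partner receptor, which tunes its signal and has no firmly established ligand of its own. KDR (VEGF receptor 2) and FLT1 (VEGF receptor 1) bind VEGFA. In the glomerulus podocytes make VEGFA and the endothelial cells beneath them carry KDR, so the receptors are usually taken to lie on the other side of the filtration barrier from the podocyte. Endoglin (ENG) presents BMP9 and TGF-beta family ligands to the kinase ALK1, and CDH5 (VE-cadherin) and PECAM1 hold endothelial cells to each other.

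Stretches of DNA upstream of 4 of these genes are shown first, because TIE1 and TEK had the largest differences and EHD3 and ENG the highest levels. The table of RefSeq promoters used here (GRCh38.p14) matched 6 of the 9 genes. The lines give the bases before the earliest annotated start of transcription, 5′ to 3′ on the gene's own strand. Capitals mark the ETS core GGAA on either strand (TTCC on the strand shown), the letters at which ETS transcription factors of endothelium bind.
TIE1, chr1:43300732-43300981, plus strand: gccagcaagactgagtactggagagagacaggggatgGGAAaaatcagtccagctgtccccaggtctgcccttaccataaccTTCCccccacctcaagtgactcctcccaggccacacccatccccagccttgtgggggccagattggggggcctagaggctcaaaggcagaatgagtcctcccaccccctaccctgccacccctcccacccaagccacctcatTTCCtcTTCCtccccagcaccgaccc
TEK, chr9:27108975-27109140, plus strand: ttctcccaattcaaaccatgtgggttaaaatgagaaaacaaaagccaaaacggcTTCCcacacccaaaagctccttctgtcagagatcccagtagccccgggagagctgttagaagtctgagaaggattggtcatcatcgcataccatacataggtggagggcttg
EHD3, chr2:31233902-31234151, plus strand: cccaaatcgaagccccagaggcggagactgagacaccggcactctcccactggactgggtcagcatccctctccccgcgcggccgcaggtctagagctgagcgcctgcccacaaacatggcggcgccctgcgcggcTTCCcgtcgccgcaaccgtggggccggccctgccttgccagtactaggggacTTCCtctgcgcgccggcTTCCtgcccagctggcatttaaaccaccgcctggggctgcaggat
ENG, chr9:127854757-127854908, minus strand: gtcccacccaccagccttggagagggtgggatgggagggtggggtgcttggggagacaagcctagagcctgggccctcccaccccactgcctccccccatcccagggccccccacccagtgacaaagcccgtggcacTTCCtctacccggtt

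The TIE1 stretch held 4 ETS cores in 250 bases, 2 of them close together near the start, and 34.31% of 35116 promoter stretches of that length held at least as many. The EHD3 stretch held 3, the TEK stretch 1 in 166 bases and the ENG stretch 1 in 152 bases. At least 1 core was present in 92.74% of stretches of 250 bases, 83.43% of those of 166 bases and 80.93% of those of 152 bases. The compared stretches were the first bases of each RefSeq promoter, counted from 250 bases upstream. They were not cut at an earliest annotated start, so the shorter ones end farther from the start. The E-box CANNTG, the letters recognised by helix-loop-helix factors, which reads the same on both strands, occurred 2 times for TIE1, 1 time each for TEK and EHD3 and not for ENG. At least 1 E-box was present in 61.82%, 48.36% and 45.54% of stretches of 250, 166 and 152 bases. At least as many as for TIE1 were held by 28.26% of stretches of 250 bases. Such matches are descriptions of letters and not of bound sites.

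The libraries held 21108695 to 27109043 counts each. ATOH8, the targeted gene, was at 6.56, 6.0, 5.8 and 4.97 CPM (counts scaled to library size by TMM) in control and at 2.19, 2.79, 2.63 and 2.11 CPM in knockdown libraries. No knockdown library reached the lowest control library, and the knockdown mean was 41.7% of control (log2 fold change -1.26, SE 0.127, edgeR quasi-likelihood adjusted p = 1.78e-09). The exact permutation test over the 70 assignments of libraries gave a two-sided p = 0.0286, the smallest it can give. Genes with at least 1 count numbered 24154 to 25081 in control and 25426 to 26071 in knockdown libraries. The part of this difference in the results for genes at low level was not tested.

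Defining genes of both cell types were partly at or near 0. EMCN (endomucin) and CLEC14A, surface proteins of endothelium, had 0 counts in all 8 libraries, and PECAM1 had 1 count in 1 library. The floor set by 3 counts was 0.112 to 0.143 CPM per library. Of 11 defining endothelial markers, EMCN and CLEC14A among them and none of the 9 genes, 4 reached a group mean of 1 CPM, and the summed level of the 11 was 25.3 to 28.4 CPM in control and 23.2 to 25.8 CPM in knockdown libraries. Of the 4, mean EGFL7 went from 10.7 to 7.38 CPM and CD34 from 2.10 to 1.29 CPM. Mean ROBO4 was 9.97 and 9.93 CPM, and ICAM2 went up from 3.42 to 4.18 CPM. The lower sum thus mostly followed EGFL7. NPHS1 (nephrin), a slit diaphragm gene of podocytes, had 0 to 2 counts in the control libraries and 2 to 6 after knockdown. WT1, a podocyte transcription factor, was at 5.61 ± 0.526 and 4.95 ± 0.551 CPM (SD, n = 4). The 9 genes are therefore described as endothelial genes measured in this line, with no endothelial cell type assigned. In bulk RNA, more cells that carry a transcript and more transcript per cell cannot be told apart.

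**Figure D1:**
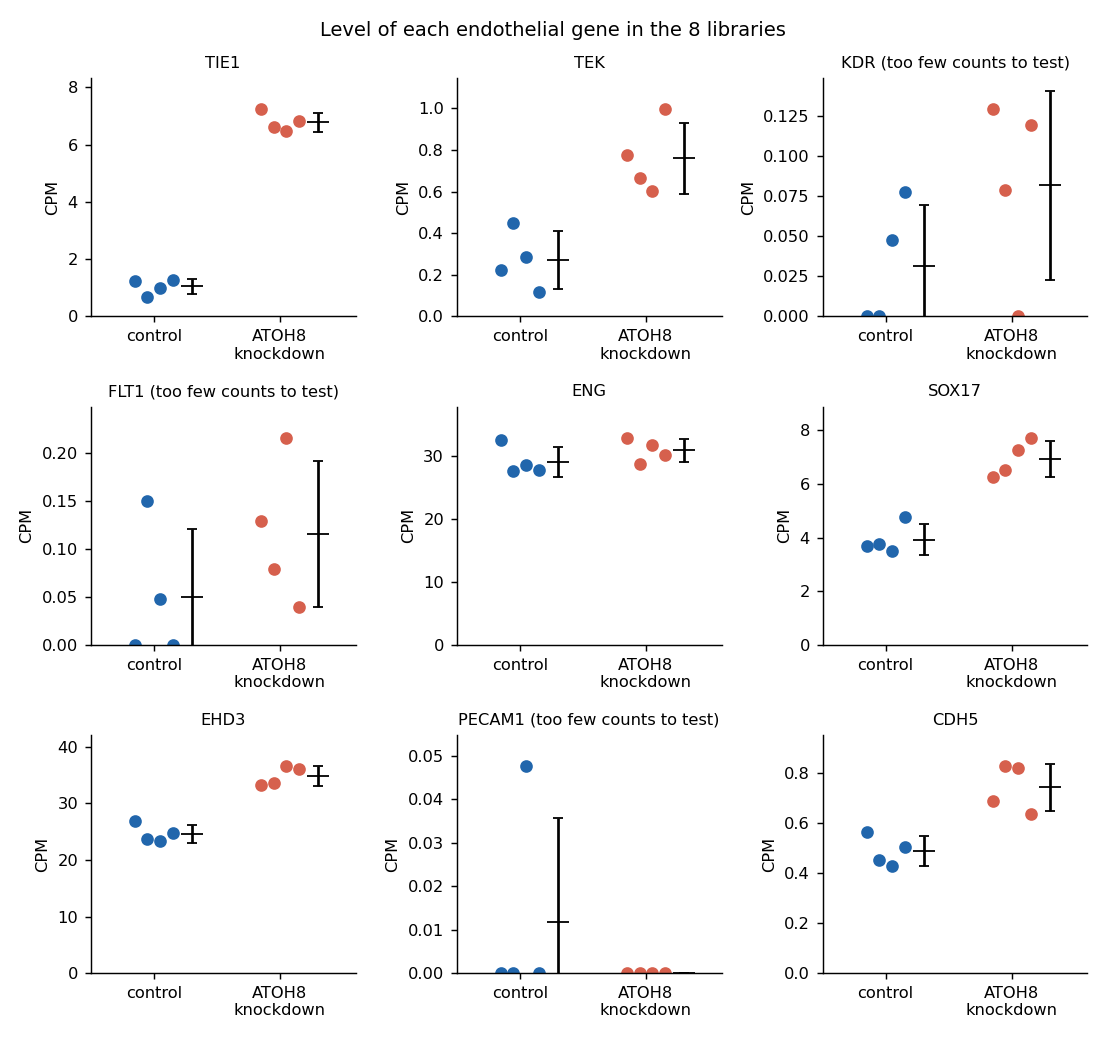
CPM of the 9 genes in each library, control in blue and ATOH8 knockdown in red, with the group mean and SD in black (lower bars cut at 0) and a separate axis from 0 for each gene. TIE1, TEK, SOX17, EHD3 and CDH5 lay higher in every knockdown library than in any control library, ENG overlapped, and KDR, FLT1 and PECAM1 had at most a few counts.

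Enough counts for the fit were found for 6 of the 9 genes, TIE1, TEK, ENG, SOX17, EHD3 and CDH5, and all 6 estimates were positive. For 5 of them every knockdown library lay above every control library, as in 22.4% of all 16884 tested genes, and the groups of 45.6% of genes did not overlap in either direction. The fit called 4 of the 6 higher, with 25.2% of all tested genes called higher and 51.1% called in either direction. Since the genes were chosen on this contrast and the filter favours genes that are high in 1 group, nothing is read from these counts.

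TIE1 showed the largest difference of the 9. Its level was 1.24, 0.675, 0.998 and 1.28 CPM in control and 7.22, 6.60, 6.46 and 6.81 CPM in knockdown libraries, from 33, 18, 21 and 33 against 168, 168, 150 and 171 counts. The groups were far apart, and the 4 knockdown libraries lay closer to each other, relative to their mean, than the 4 control libraries did. Low counts carry more counting error relative to their mean, so nothing is read from the wider control spread. The log2 fold change was 2.68 (SE 0.149), or 6.43-fold, which ranked TIE1 at 54 among 16884 tested genes ordered from the largest rise. No other annotated gene shares its exons.

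TEK was far lower. It had 6, 12, 6 and 3 counts in control and 18, 17, 14 and 25 in knockdown libraries, or 0.269 ± 0.139 against 0.760 ± 0.172 CPM (SD, n = 4). Every knockdown library exceeded every control library, though the highest control and the lowest knockdown library were only 0.450 and 0.603 CPM. The log2 fold change was 1.48 (SE 0.341), with a larger SE than that of TIE1 and few counts behind it. Among 2295 tested genes with a control mean under 1 CPM, the median log2 fold change was 0.23 and 25% were called higher against 3.62% called lower, whereas the median of all tested genes was near 0. These genes were selected by a low control mean, and the filter more readily admits such genes when their knockdown libraries are high. Rises are thus favoured by the selection itself, and nothing is read from these shares. Among tested genes given below, CDH5, SVEP1, ANGPT1, FLT4, ACVRL1, VWF and ITGAM also had control means under 1 CPM. The same held for the genes nearest to TIE1 in profile. The part of this shift in their values and in that for TEK was not tested.

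The VEGF receptors were at the limit of detection. KDR had 0, 0, 1 and 2 counts in control and 3, 2, 0 and 3 in knockdown libraries. FLT1 had 0, 4, 1 and 0 counts in control and 3, 2, 5 and 1 in knockdown libraries. Both sets of counts overlapped, no library held more than 5 counts of either gene, and a difference between the groups was not detectable at this depth.

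ENG was the most abundant of the 9 and nearly level between the groups. Control libraries held 32.6, 27.6, 28.6 and 27.8 CPM and knockdown libraries 32.9, 28.8, 31.8 and 30.3 CPM, with overlap throughout. The log2 fold change was 0.08 (SE 0.055). In GENCODE release 29 an antisense transcript on the opposite strand overlaps 7.95% of the ENG exons and had 102 counts in all against 5920 for ENG. Whether the counting used strand is not given, so reads of the overlap cannot be told apart.

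SOX17, a SOX-F transcription factor of arterial endothelium, was at 3.67, 3.75, 3.52 and 4.77 CPM in control and 6.28, 6.52, 7.27 and 7.72 CPM in knockdown libraries. The groups did not overlap, and control replicate 4 stood above the other control libraries. The log2 fold change was 0.82 (SE 0.111), or 1.76-fold.

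EHD3, an ATPase of endocytic recycling that is enriched in glomerular endothelium, was at 26.8, 23.7, 23.3 and 24.8 CPM in control and 33.2, 33.5, 36.5 and 36.1 CPM in knockdown libraries. The groups were clearly separate and each was tight. The log2 fold change was 0.50 (SE 0.052), or 1.41-fold, the smallest among the 5 genes whose groups did not overlap.

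CDH5 had 15, 12, 9 and 13 counts in control and 16, 21, 19 and 16 in knockdown libraries. Scaled to depth these were 0.486 ± 0.0601 and 0.742 ± 0.0941 CPM (SD, n = 4), with the highest control library at 0.562 and the lowest knockdown library at 0.637 CPM. The log2 fold change was 0.60 (SE 0.271), again with few counts behind it and a control mean under 1 CPM. PECAM1 had 1 count, in control replicate 3, and 0 in the other 7 libraries.

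**Figure D2:**
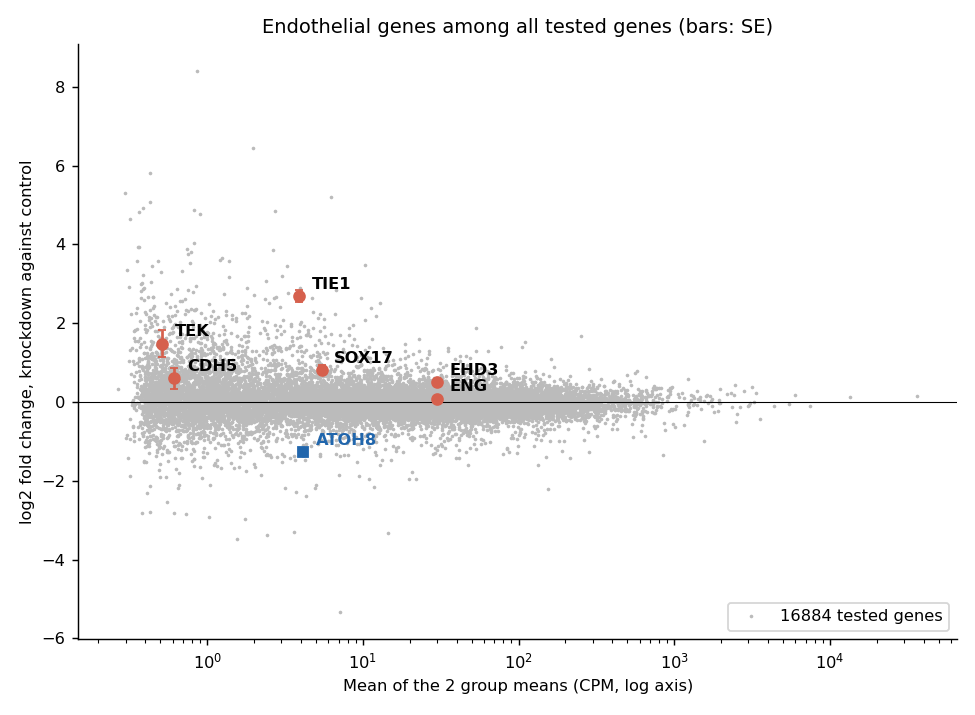
Log2 fold change of knockdown against control (vertical axis) against the mean of the group means in CPM (log axis) for 16884 tested genes in grey, with the 6 tested endothelial genes in red and ATOH8 in blue, bars SE. TIE1 stands near the upper edge of genes at its level, while ENG lies at 0.08 and EHD3 at 0.50.

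Levels of different genes were compared as CPM per kilobase of exon (GENCODE release 29). In control libraries the order was ENG at 7.40 ± 0.592, EHD3 at 5.32 ± 0.339, SOX17 at 1.68 ± 0.244, TIE1 at 0.157 ± 0.0415, CDH5 at 0.0799 ± 0.00988 and TEK at 0.0560 ± 0.0290 CPM per kilobase (SD, n = 4). CDH5 and TEK did not differ beyond their spread, and KDR, FLT1 and PECAM1 lay below 0.005 with SDs larger than their means. In knockdown libraries ENG (7.86 ± 0.458) and EHD3 (7.51 ± 0.369) were no longer apart beyond their spread. SOX17 followed at 2.97 ± 0.285, TIE1 at 1.01 ± 0.05, TEK at 0.158 ± 0.0358 and CDH5 at 0.122 ± 0.0155 CPM per kilobase, and the libraries of TEK and CDH5 overlapped. TIE1 thus stayed below SOX17 in both groups on this scale.

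The ligands and partners of the angiopoietin receptors were taken from a list of 14 genes without TIE1 and TEK. Of 10 tested, 5 rose, 2 fell and 3 did not pass. The median log2 fold change was 0.21, against near 0 over all tested genes. Over all tested genes 25.2% were called higher and 25.9% called lower. This list and those below were chosen with earlier results of these data known, so nothing is read from such counts. PTPRB (VE-PTP), the phosphatase that removes phosphate from TEK, was abundant, with 70.6, 70.8, 67.4 and 64.5 CPM in control and 96.9, 96.7, 95.1 and 98.7 CPM in knockdown libraries. It rose by 0.50 on the log2 scale (SE 0.036, edgeR adjusted p = 1.95e-12), with no overlap between groups.

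SVEP1, a matrix protein that binds TIE1, rose at low level from 0.264 ± 0.116 to 0.606 ± 0.169 CPM (SD, n = 4; log2 1.16, SE 0.349, edgeR adjusted p = 0.00629). The integrin subunit gene ITGA5 (log2 0.37, SE 0.032) and FOXO1, a transcription factor that TEK signalling restrains (log2 0.44, SE 0.053), also rose. TNIP2, an adaptor bound by TEK, rose slightly (log2 0.16, SE 0.056, edgeR adjusted p = 0.0189), a call lost on omission of 3 of the 8 libraries in turn (control replicate 1, knockdown replicate 1 or 3, edgeR adjusted p = 0.0628 to 0.0985). GRB14, an adaptor of receptor kinases, fell from 16.2 ± 1.66 to 12.6 ± 0.600 CPM (log2 -0.37, SE 0.072), and ITGB1, the beta-1 integrin chain, fell by 0.14 on the log2 scale (SE 0.032). GRB7, another adaptor, did not pass (log2 0.15, SE 0.118, edgeR adjusted p = 0.309).

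The ligands themselves were scarce. ANGPT1, the agonist of TEK, had 16 to 23 counts in the control libraries and 17 to 30 after knockdown (log2 0.26, SE 0.259, edgeR adjusted p = 0.43). ANGPT2, its context-dependent antagonist, had 0 to 1 and 0 to 2 counts. ANGPT4, a less studied angiopoietin, had 1, 0, 2 and 2 counts in control and 9, 5, 10 and 14 in knockdown libraries. These counts were too few to enter the fit, although the groups did not overlap.

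**Figure D3:**
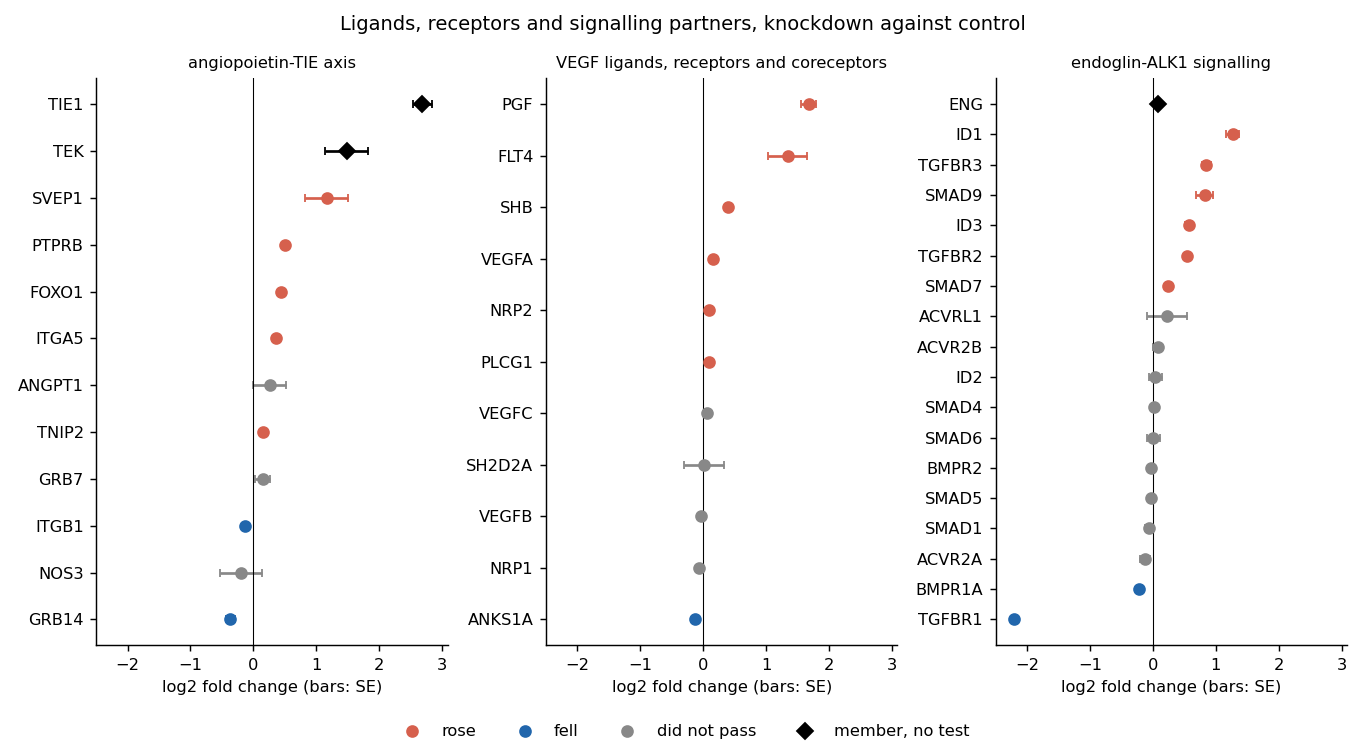
Log2 fold change with SE of the tested genes of the angiopoietin-TIE, VEGF and endoglin-ALK1 lists (red rose, blue fell, grey did not pass), with TIE1, TEK and ENG as black diamonds without a test. PGF at 1.68, FLT4 at 1.34, ID1 at 1.27 and TGFBR1 at -2.20 lie farthest from 0 among the listed partners.

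In the VEGF list of 12 genes, again without members, 11 were tested, and 6 rose and 1 fell, while 4 did not pass (median log2 0.09). PGF, placental growth factor, a ligand of FLT1, changed most, at 1.76, 2.63, 2.33 and 1.98 CPM in control and 6.88, 6.52, 7.15 and 7.24 CPM in knockdown libraries. It rose by 1.68 on the log2 scale (SE 0.122, edgeR adjusted p = 2.43e-12) without overlap. VEGFA was abundant in both groups and rose from 116 ± 1.83 to 129 ± 3.31 CPM (SD, n = 4; log2 0.15, SE 0.033, edgeR adjusted p = 0.000252). FLT4 (VEGF receptor 3), the receptor of lymphatic endothelium, rose from 0.361 ± 0.149 to 0.945 ± 0.263 CPM (SD, n = 4; log2 1.34, SE 0.310, edgeR adjusted p = 0.000591), and SHB, an adaptor of KDR, by 0.39 (SE 0.044).

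VEGFC (log2 0.07, SE 0.039) and VEGFB (log2 -0.03, SE 0.048), ligands of FLT4 and FLT1, did not pass, with edgeR adjusted p = 0.152 and 0.677. The neuropilins, coreceptors for VEGFs and semaphorins, were abundant, with NRP1 at 348 ± 11.2 and 333 ± 12.7 CPM and NRP2 at 384 ± 23.2 and 411 ± 6.74 CPM in control and knockdown libraries (SD, n = 4). NRP1 did not pass (log2 -0.06, edgeR adjusted p = 0.107) except without control replicate 4 (edgeR adjusted p = 0.0402). NRP2 rose slightly (log2 0.10, edgeR adjusted p = 0.0222), a call lost on omission of 4 of the 8 libraries in turn (control replicate 2, 3 or 4 or knockdown replicate 2, edgeR adjusted p = 0.0576 to 0.128). PLCG1, a phospholipase downstream of KDR, rose (log2 0.09, edgeR adjusted p = 0.0225), and its call was lost on omission of 3 libraries (control replicate 3 or 4 or knockdown replicate 1, edgeR adjusted p = 0.0579 to 0.0865) and without a filter on low counts (0.0788). The 1 fall was that of ANKS1A, an adaptor protein (log2 -0.12, edgeR adjusted p = 0.026), lost on omission of 4 libraries (control or knockdown replicate 3 or 4, edgeR adjusted p = 0.0515 to 0.0919) and with DESeq2 (adjusted p = 0.0682).

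Around endoglin, 17 of 19 listed genes were tested, 6 of which rose and 2 fell, while 9 did not pass (median log2 0.04). Its kinase partner ACVRL1 (ALK1) was scarce, at 7 to 22 counts in the control libraries and 10 to 19 after knockdown (log2 0.23, SE 0.322, edgeR adjusted p = 0.582). The circulating ligand genes GDF2 (BMP9) and BMP10 had at most 4 counts in any library. Of the other receptors, TGFBR2 rose (log2 0.54, SE 0.035), as did TGFBR3 (betaglycan), a coreceptor related to endoglin, from 9.85 ± 0.784 to 17.7 ± 0.707 CPM (SD, n = 4; log2 0.85, SE 0.068).

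TGFBR1 (ALK5) fell from 253 ± 5.09 to 54.9 ± 3.64 CPM (SD, n = 4; log2 -2.20, SE 0.039, edgeR adjusted p = 2.32e-26), the largest change of the list, and BMPR1A fell by 0.22 (SE 0.042). Among genes known as targets of this signalling, ID1 rose from 4.44 ± 0.552 to 10.8 ± 0.858 CPM (log2 1.27, SE 0.096), ID3 (log2 0.57, SE 0.053) and the inhibitory SMAD7 (log2 0.24, SE 0.044) rose, and ID2 (log2 0.04) and SMAD6 (log2 0.01) did not pass. The transducer SMAD9 rose (log2 0.83, SE 0.133), and SMAD1, SMAD5 and SMAD4 did not pass, at log2 -0.06, -0.03 and 0.02. The type II receptors BMPR2 (log2 -0.03), ACVR2A (log2 -0.12) and ACVR2B (log2 0.08) did not pass either.

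Of 25 transcription factors known from endothelium besides SOX17, 16 were tested. Of these 6 rose and 1 fell, while 9 did not pass (median log2 0.16). SOX7, a SOX-F relative of SOX17, was at 3.30, 3.79, 3.80 and 3.10 CPM in control and 5.89, 6.09, 6.33 and 6.13 CPM in knockdown libraries, without overlap. It rose by 0.81 on the log2 scale (SE 0.107, edgeR adjusted p = 2.94e-07), beside 0.82 for SOX17. The remaining SOX-F gene, SOX18, had at most 4 counts in a library. EPAS1, a hypoxia-inducible factor (log2 0.43, SE 0.034), and NR2F2, a factor of venous identity (log2 0.29, SE 0.034), rose, and HHEX fell (log2 -0.41, SE 0.085, edgeR adjusted p = 0.000183). The ETS gene ERG had 0 to 4 counts in the control libraries and 1 to 7 after knockdown, and TAL1 had 1 to 4 counts in any library. FLI1, another ETS gene, was at 7.34 ± 1.32 and 8.88 ± 1.28 CPM (SD, n = 4; log2 0.28, SE 0.133, edgeR adjusted p = 0.0975), and passed without knockdown replicate 3 (edgeR adjusted p = 0.00759) and without a filter on low counts (0.00951).

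In a list of the family and partners of EHD3, 10 of 10 genes were tested. Of these 8 rose and 1 fell, while 1 did not pass (median log2 0.22), beside 25.2% called higher and 25.9% called lower over all tested genes. EHD2, which acts at caveolae, rose from 260 ± 14.2 to 344 ± 12.1 CPM (SD, n = 4; log2 0.40, SE 0.036, edgeR adjusted p = 2.42e-10). EHD1 (log2 0.18) and EHD4 (log2 0.22) rose as well, so that all 4 EHD genes were higher, EHD3 among them without a test. The partner genes MICALL1 (log2 0.42, SE 0.041) and SNAP29 (log2 0.23, SE 0.038) rose. RBSN, an endosomal tethering protein, fell (log2 -0.15, SE 0.054, edgeR adjusted p = 0.0189), a call lost without control replicate 2 or knockdown replicate 1 (edgeR adjusted p = 0.0751 and 0.088) and with DESeq2 (adjusted p = 0.0584).

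Junction partners of CDH5 and PECAM1 went both ways by small amounts. All 16 were tested, with 8 that rose, 4 that fell and 4 that did not pass (median log2 0.06). CTNNBIP1, an inhibitor of beta-catenin (log2 0.36, SE 0.054), VCL (vinculin, log2 0.19, SE 0.032) and the scaffold gene TJP1 (log2 0.19, SE 0.033) rose. CTNND1, p120-catenin, which binds the tail of VE-cadherin (log2 -0.18, SE 0.029), AFDN (afadin, log2 -0.14, SE 0.036) and CTNNA1 (alpha-catenin, log2 -0.11, SE 0.029) fell.

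Other endothelial markers went both ways. Of 30 listed, 14 had too few counts to test and 5 had none in any library. Of the 16 tested, 5 rose and 5 fell, while 6 did not pass, and the median log2 fold change was 0.15. VWF, the endothelial clotting glycoprotein, rose from 6 to 13 counts in the control libraries to 17 to 26 after knockdown (log2 1.01, SE 0.299, edgeR adjusted p = 0.00562). TM4SF1 (log2 0.42, SE 0.032), the adhesion receptor gene ADGRL4 (log2 0.40, SE 0.048) and CAV1, the coat protein of caveolae (log2 0.16, SE 0.034), rose from levels far above those of TIE1. THBD (thrombomodulin) fell from 8.15 ± 1.24 to 1.91 ± 0.584 CPM (SD, n = 4; log2 -2.10, SE 0.162, edgeR adjusted p = 4.83e-09). EGFL7, a secreted vascular protein (log2 -0.53, SE 0.081), and CD34 (log2 -0.70, SE 0.180, edgeR adjusted p = 0.00181) fell. ROBO4, an endothelial guidance receptor, was level (log2 -0.01, SE 0.084), and CLDN5, the endothelial claudin, had 0 counts in every control library and 0 to 3 after knockdown.

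**Figure D4:**
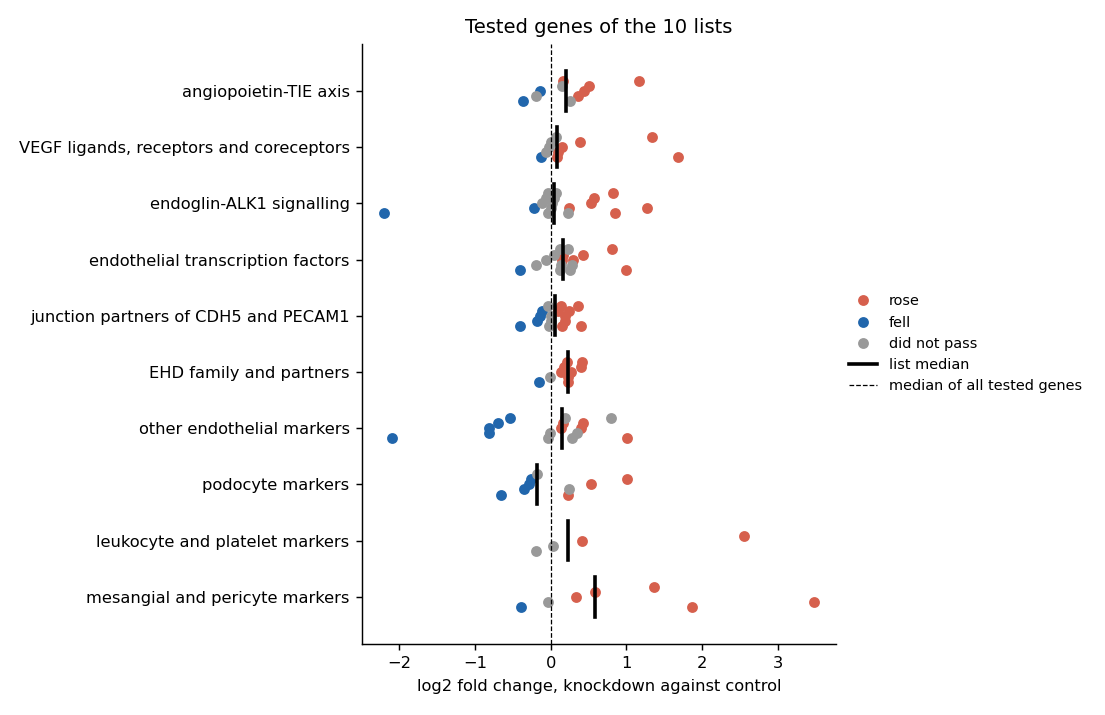
Log2 fold change of each tested gene in the 10 lists (red rose, blue fell, grey did not pass), with list medians as black bars and the median of all 16884 tested genes as a dashed line. Other endothelial markers spread to both sides with a median of 0.15, and the mesangial and pericyte list had the highest median, 0.58.

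Markers of other cell types were read in the same libraries. Of the mesangial and pericyte list, 7 of 10 genes were tested, 5 rose and 1 fell, and the summed level of 5 defining genes went from 40.5 to 42.9 CPM in control to 117 to 135 CPM in knockdown libraries. THY1 (log2 3.48, SE 0.098), the pericyte proteoglycan CSPG4 (log2 1.87, SE 0.052) and NOTCH3 (log2 1.37, SE 0.132) rose, and RGS5 fell (log2 -0.39, SE 0.096). Within the sum, mean CSPG4 went from 22.8 to 83.4 CPM, THY1 from 1.69 to 19.1 CPM and NOTCH3 from 1.87 to 4.84 CPM. Mean RGS5 went from 8.82 to 6.71 CPM, so the sum mostly followed CSPG4. Of 12 leukocyte and platelet genes 4 were tested and 2 rose, CD68 (log2 0.42, SE 0.040) and the integrin gene ITGAM from 0.190 ± 0.0338 to 1.14 ± 0.297 CPM (SD, n = 4; log2 2.56, SE 0.320). PTPRC (CD45) had at most 2 counts in a library, and ITGA2B, the platelet integrin, had 2 to 7 in the control libraries and 5 to 19 after knockdown. The summed level of 7 defining leukocyte and platelet genes was 1.65 to 2.21 CPM in control and 2.58 to 3.10 CPM in knockdown libraries. Within this sum mean ITGA2B went from 0.173 to 0.509 CPM. Mean CD14, a monocyte marker, went down from 1.21 to 1.06 CPM and did not pass, so the higher sum mostly followed ITGAM.

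Among podocyte markers 9 of 15 were tested, 3 rose and 4 fell, while 2 did not pass (median log2 -0.18). SYNPO, an actin-binding protein of foot processes (log2 0.53, SE 0.062), the actin crosslinker gene ACTN4 (log2 0.23, SE 0.032) and the intermediate filament gene NES (log2 1.01, SE 0.126) rose. KIRREL1 (log2 -0.36, SE 0.031), PLA2R1 (log2 -0.65, SE 0.060) and CD2AP (log2 -0.26, SE 0.040) fell. The summed level of 7 defining podocyte genes was 30.3 to 34.0 CPM in control and 34.5 to 41.0 CPM in knockdown libraries. Of the 3 tested genes in this sum only SYNPO rose, from 17.2 ± 1.14 to 24.9 ± 2.05 CPM (SD, n = 4), while PODXL, the podocalyxin gene, fell from 9.19 ± 0.851 to 7.52 ± 0.970 CPM (SD, n = 4; log2 -0.29, SE 0.094, edgeR adjusted p = 0.0118) and WT1 did not pass. The call for PODXL was lost without knockdown replicate 3 (edgeR adjusted p = 0.0679). The part of these cell type markers in the levels of TIE1, TEK, SOX17, EHD3 and CDH5 was not tested.

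Profiles most like that of TIE1 were sought among 14688 tested genes with a mean of at least 1 CPM and counts in every library, as the root mean square difference in log2 CPM over the 8 libraries after the control mean of each gene was set to 0. The median difference over these genes was 1.96. The 5 nearest were ENSG00000246130 (0.181), RHOJ (0.185), ALOXE3 (0.186), LINC03061 (0.210) and ENSG00000251095 (0.312). RHOJ, a small GTPase known from endothelial cells, went from 0.526 ± 0.159 to 3.48 ± 0.327 CPM (SD, n = 4), and ALOXE3, a lipoxygenase of skin, from 0.740 ± 0.199 to 4.22 ± 0.401 CPM. LINC03061, a noncoding RNA, went from 0.748 ± 0.220 to 4.79 ± 0.208 CPM. These genes were selected on the same contrast, and no test is given for them.

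**Figure D5:**
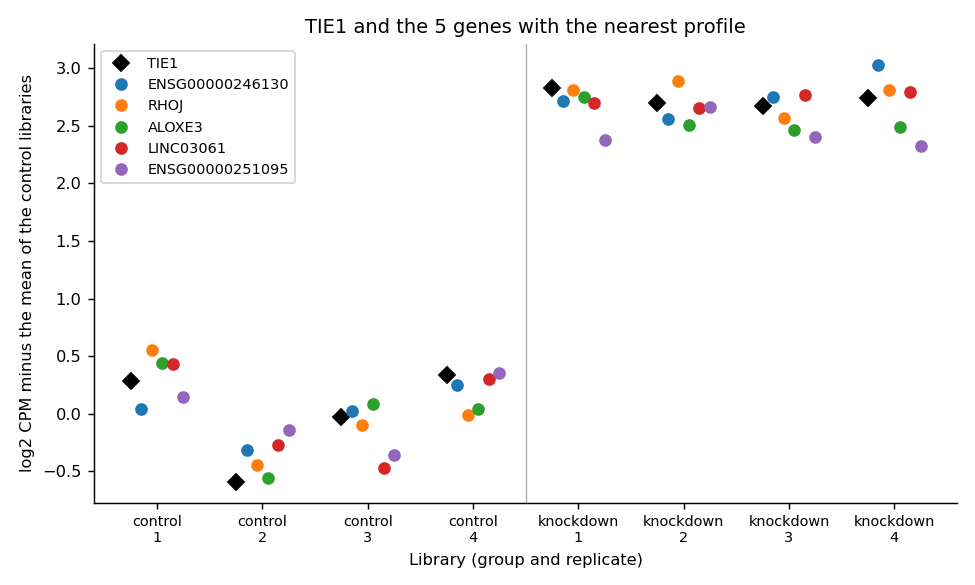
Log2 CPM of TIE1 (black diamonds) and of the 5 genes with the nearest profile (coloured circles) in each library, after subtraction of the mean of each gene over the 4 control libraries. All 6 genes lie about 2.3 to 3.0 log2 units above their control mean in each knockdown library.

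Genes beside TIE1 on chromosome 1 had smaller estimates, or too few counts for one. In the order of GENCODE release 29, C1orf210, the nearest gene on one side, had group means of at most 0.102 CPM and could not be tested. The nearest tested genes were EBNA1BP2 (log2 -0.21, SE 0.041) and SLC2A1 (log2 0.23, SE 0.034) on that side and CDC20 (log2 -0.98, SE 0.049) and ELOVL1 (log2 0.19, SE 0.039) on the other. All 4 passed the test, with edgeR adjusted p = 7.93e-05, 1.7e-06, 6.46e-16 and 0.000147 in that order, 2 in each direction.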

How the data were processed

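RNA-seq of 8 AB8/13 libraries, 4 control and 4 ATOH8 knockdown, was deposited by the authors as a table of read counts per gene. Per the labels' protocols, polyadenylated RNA was made into directional libraries. The tools listed per the submitters' processing notes are FastQC, STAR, featureCounts and DESeq2, with the build hg19. Tool versions, the annotation, the use of strand and the handling of ambiguous reads are not given in the sources read. Of 60609 rows, 1 with a missing cell and 44 pseudoautosomal Y copies were left out.

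Counts were filtered with filterByExpr, scaled by TMM and compared with the quasi-likelihood F test of edgeR 4.0.16 in R 4.3.3. Fold changes are log2 of knockdown over control, with SEs taken from F. Adjusted p is Benjamini-Hochberg over all 16884 tested genes, called under 0.05. DESeq2 1.42.0, other size factors, other filters, the replicate number as a block and the omission of each library were alternatives. In simulated counts, the same test on 16659 genes called 88 of 94 with a 2-fold change and 72 of 96 with a 1.3-fold change, and 8 of 168 calls were unchanged genes. The simulation changed few genes, equally up and down, with the dispersion of the fitted trend. Here 51.1% of genes were called, so these rates need not hold for this contrast. The chi-square per gene between libraries of a group was 1.91 to 4.20, so none agreed within sampling noise. The design text calls the replicates biological without naming separate cultures, and p-values reflect only the spread among these 8 libraries, part of which may be technical.

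The 9 genes and the 10 lists were chosen with earlier results of these data known. Named are the 9 genes, ATOH8, defining markers (VWF, CLDN5, EMCN, ROBO4, ERG, FLI1, TAL1, NPHS1, WT1, PTPRC and ITGA2B, with 1 more that is not reported here), the genes nearest to TIE1 in profile, per list up to 3 rises and 3 falls with the smallest adjusted p, and in the angiopoietin, VEGF and endoglin lists each gene at 1 CPM or more. For the profiles, counts in every library were required in addition to the rule, since log2 of 0 is undefined. Genes beyond this (ANGPT1, ANGPT2, ANGPT4, SVEP1, FLT4, ACVRL1, GDF2, BMP10, SOX18, EHD1, EHD4, CLEC14A, ICAM2, CD14, PODXL and the neighbours of TIE1) were added after their values were seen. Gene names, exon lengths and order came from a gene name table and from GENCODE release 29, which describes GRCh38 and not hg19. Promoters came from RefSeq, and both motifs were chosen with the fold changes known. Ranges given in counts run from the lowest to the highest library and are not intervals of error.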

Additional observations from a re-analysis of the deposited data

Results flagged for a closer look

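In groups of 4 libraries, 1 library stood apart from the other 3 (its gap to the nearest, as a share of the range, passed Dixon's critical value) in 8 of 182 groups examined, and chance gives about 1 in 20. None of the 9 endothelial genes and not ATOH8 was among them. Control replicate 1 was high for CTNND1 (344.6 CPM, others 333.6 to 334.9) and KIRREL1 (652.7 CPM, others 614.5 to 619.8) and low for TM4SF1 (119.1 CPM, others 122.3 to 122.7). Control replicate 4 was low for SHB (34.7 CPM, others 37.5 to 37.8) and ACVR2A (10.9 CPM, others 12 to 12.2). Knockdown replicate 1 was high for ALOXE3 (4.82 CPM, others 3.96 to 4.08), and knockdown replicate 2 for WT1 (5.77 CPM, others 4.62 to 4.78). Knockdown replicate 2 was low for ELOVL1 (71.0 CPM, others 78.6 to 78.9).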

How the results depend on the processing

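Under the alternatives run, the log2 fold changes of the 6 tested endothelial genes ranged from 2.51 to 2.80 for TIE1, 1.23 to 1.87 for TEK, 0.76 to 0.93 for SOX17, 0.47 to 0.54 for EHD3, 0.54 to 0.67 for CDH5 and 0.05 to 0.14 for ENG. In 76 of 76 values they moved by less than the spread between libraries of a group. Omission of 1 library can move a group mean by only part of that spread, so nothing is read from this count. TEK and CDH5 could not be fitted with the filter of at least 1 CPM in 4 libraries. Over all genes, 3850 to 4545 were called higher and 3905 to 4466 lower. The fall in the VEGF list and that in the EHD list were lost with DESeq2 (0 genes each), and over the omission of single libraries their counts were 0 to 1 (0 in the VEGF list without control replicate 3 or knockdown replicate 3 or 4, and in the EHD list without control replicate 2 or knockdown replicate 1). With the stricter filter 1 leukocyte and platelet gene rose in place of 2, since fewer genes were tested. Of 1086 values for 84 other named genes, 20 lost a call, 3 gained one and 0 reversed. ICAM2 and CD14 were not among the 84. Libraries with the same replicate number did not deviate together (correlations 0.008 to 0.072), and 2 of 4 correlated best with their own number, so the replicate number was not treated as a pairing. With the replicate block, 4336 genes were called higher and 4466 lower, and TIE1 had a log2 fold change of 2.70. Depth limits KDR, FLT1 and PECAM1, which stay under or near the floor of 3 counts per library.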
